A study of Rattus norvegicus with 9 samples.

Results

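miR-146a-5p and miR-146b-5p are the 5p mature products of 2 separate genes. Their rows, rno-miR-146a-5p and rno-miR-146b-5p, were taken by name from a table of 726 miRNA rows, so that 2 of 726 rows are described. The cells were cartilage progenitor cells, wild-type primary cultures from the condylar cartilage of rats, and their small RNA was sequenced. The 9 libraries formed 3 groups of 3: P3, cells cultured to passage 3 and the control; P9, cells cultured to passage 9, named in the design text as replicative senescence; and FFSS, passage 3 cells exposed to flow fluid shear stress, named there as a degeneration model. No genetic change or added agent is named for any group, and the sources used here do not give the strength and duration of the flow, the rat strain or age, or whether a replicate was a culture or an animal of its own. The p-values therefore measure only the spread between these libraries, which may be technical.

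A miRNA is cut from a hairpin transcript and guides the Argonaute protein to messenger RNAs that pair with its seed, bases 2 to 8 of the mature strand. miR-146a is a classic target gene of NF-kB, the transcription factor of inflammatory signalling, and both paralogs are known to repress Irak1 and Traf6, adaptors that carry signals from Toll-like and interleukin-1 receptors to NF-kB, so that they act as a brake on that pathway. Both have been described as rising in senescent fibroblasts, where they restrain interleukin-6 and interleukin-8, and miR-146a has long been studied in cartilage exposed to interleukin-1 and in osteoarthritis.

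The mature sequences are shown because the paralogs differ at few bases and their reads had to be told apart by those bases. They are the RefSeq sequences of the rat build GRCr8, 5′ to 3′, with the seed in capitals.
miR-146a-5p: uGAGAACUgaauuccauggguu
miR-146b-5p: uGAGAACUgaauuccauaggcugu
miR-146a-3p: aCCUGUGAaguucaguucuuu
miR-146b-3p: cCUAGGGAcucaguucuggug
The 5p strands share the seed GAGAACU, which 2 mature rat miRNAs in the RefSeq table carry, these 2. Counted from the 5′ end of miR-146a-5p, they differ by G18A and U21C, so 20 of the first 22 bases are the same, and miR-146b-5p is annotated with 2 more bases at its 3′ end. The 3p strands, the opposite arms of the hairpins, share 6 of 21 bases position by position and have different seeds.

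The hairpins are shown with both mature arms in capitals, because the 3p arm gives a second reading of each hairpin.
Mir146a: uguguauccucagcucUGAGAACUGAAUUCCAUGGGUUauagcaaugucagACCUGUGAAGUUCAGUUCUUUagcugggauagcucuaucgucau
Mir146b: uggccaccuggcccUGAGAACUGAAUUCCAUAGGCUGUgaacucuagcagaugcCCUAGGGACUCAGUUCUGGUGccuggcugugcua
In that annotation Mir146a, of 95 bases, lies on the minus strand of chromosome 10, between the coding genes Atp10b and Pttg1. It overlaps the long noncoding RNA gene LOC134480673. Mir146b, of 88 bases, lies on the plus strand of chromosome 1, between Cuedc2 and Mfsd13a, and overlaps the gene model C1h10orf95. Nfkb2, which encodes an NF-kB subunit, is on the same chromosome with 3 coding genes between it and Mir146b.

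Libraries held between 2878910 and 8862560 miRNA reads, and the lowest totals were 2878910 and 3896403 reads (FFSS replicates 1 and 3). P9 replicate 3 correlated least with its own group of all 9 libraries (mean Pearson r of log2 values across miRNAs 0.966, against 0.972 to 0.993 for the others). The cartilage markers miR-140-5p, miR-140-3p, miR-455-5p and miR-455-3p were read in every library, at a summed level of 4150 to 7370 CPM in P3, lower at 2590 to 3847 CPM in P9, and 6077 to 7202 CPM under FFSS. Levels are CPM, reads per 1000000 miRNA reads of the library. Changes are log2 fold changes with standard errors (SE) and Benjamini-Hochberg adjusted p-values from edgeR's quasi-likelihood test of 439 miRNAs in all 9 libraries, called at an adjusted p under 0.05. In such bulk samples, fewer cells that express a miRNA and less of it per cell cannot be told apart.

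Both paralogs were read in all 9 libraries, miR-146a-5p on 120 to 48947 reads and miR-146b-5p on 459 to 3348 reads. The P3 libraries lay close together. In them miR-146a-5p stood at 400.8, 398.5 and 392.1 CPM in replicates 1 to 3 (397 ± 4.51, SD, n = 3), which placed it 77th to 83rd by reads. miR-146b-5p stood at 161, 173 and 168 CPM (167 ± 6.13, SD, n = 3) and ranked 108th to 116th. In P3 miR-146a-5p was the more abundant paralog, with 2.31 to 2.50 reads for each read of miR-146b-5p.

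**Figure D1:**
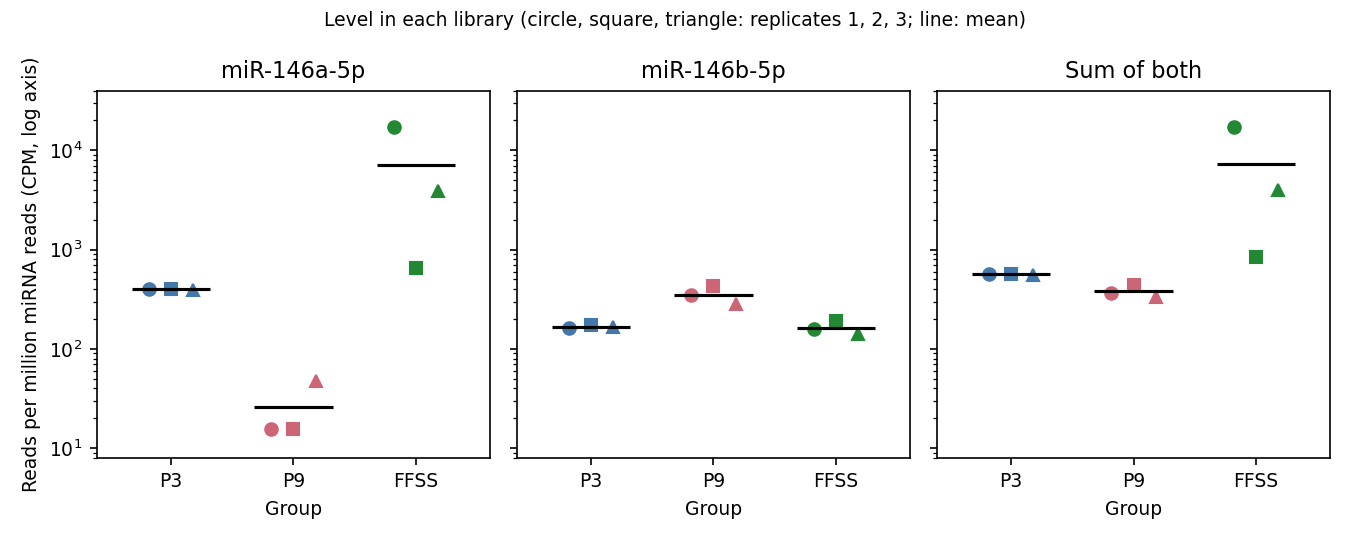
CPM on a log axis of miR-146a-5p, miR-146b-5p and their sum in each of the 9 libraries, with a line at the mean of each group. miR-146a-5p spans 15.5 to 17002 CPM with P9 lowest and FFSS highest, while miR-146b-5p stays between 141 and 426 CPM and is highest in P9.

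At passage 9 the paralogs moved in opposite directions. miR-146a-5p was at 15.8, 15.5 and 47.6 CPM in P9 replicates 1 to 3 (26.3 ± 18.4, SD, n = 3). Every P9 library lay below every P3 library, by 25.2-, 25.6- and 8.35-fold against the P3 mean, and replicate 3 was the highest of the 3. The fall was 3.82 on the log2 scale (log2 fold change -3.82, SE 0.99, adjusted p = 0.0419), and only 3 of the 439 miRNAs had a larger absolute change in this comparison. miR-146a-5p moved down the list from about rank 80 to ranks 248, 242 and 169.

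miR-146b-5p was at 350, 426 and 282 CPM in the same libraries (352 ± 71.7, SD, n = 3). All 3 lay above all 3 P3 libraries, by 2.09-, 2.55- and 1.69-fold against the P3 mean. The rise was 1.13 on the log2 scale (SE 0.31, adjusted p = 0.0419), with 49 miRNAs changed more in absolute terms. Replicate 3, the P9 library with the most miR-146a-5p, had the least miR-146b-5p of the group. Both paralogs were called, where 7.29% of the 439 miRNAs were called in either direction, 3.87% as higher and 3.42% as lower. P9 lay wholly below P3 for 14.1% of them and wholly above for 11.2%, 25.3% together.

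Both calls at passage 9 were close to the threshold in the fit of all 9 libraries. miR-146a-5p was no longer called when any 1 of the 6 P3 and P9 libraries was left out (adjusted p up to 0.249, with P9 replicate 1 out) and with the replicate number as a block (0.0889). Without P9 replicate 3, the library that stood apart, the log2 fold change of miR-146a-5p was -4.65 (adjusted p = 0.138). With FFSS replicate 1 left out as well it was -4.63 (adjusted p = 0.00952), and in a fit of P3 and P9 alone it was -3.82 (adjusted p = 0.00218). The call of miR-146a-5p was kept with only FFSS replicate 1, 2 or 3 out (adjusted p = 0.00311, 0.00323 and 0.0306) and with DESeq2 (0.00356). miR-146b-5p was no longer called when any of 6 libraries was left out (the 3 of P3, P9 replicates 1 and 2, and FFSS replicate 3, with an adjusted p up to 0.224, P3 replicate 1 being out) and with the block (0.0723), and it stood at 0.0367 in a fit of P3 and P9 alone.

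Under flow fluid shear stress miR-146a-5p rose and no change of miR-146b-5p was detected. miR-146a-5p was at 17002, 650.2 and 3853 CPM in FFSS replicates 1 to 3 (7168 ± 8665, SD, n = 3). Every FFSS library lay above every P3 library, but by very different amounts: 42.8-, 1.64- and 9.70-fold against the P3 mean. In replicate 1 miR-146a-5p was the 13th most abundant miRNA with 1.70% of all reads, in replicate 3 the 32nd and in replicate 2 the 66th. The change was 4.20 on the log2 scale (SE 0.999, adjusted p = 0.0198), the highest positive value of the 439 miRNAs. Of these, 20.5% were called in either direction, 6.83% as higher and 13.7% as lower. FFSS lay wholly above P3 for 18.9% of them, and the groups did not overlap for 41.5%.

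The size of that rise rested on replicate 1. Without it the log2 fold change was 2.20 (adjusted p = 0.0393), and without P9 replicate 3 and FFSS replicate 1 together it was 2.22 (adjusted p = 0.0358). It was no longer called when P9 replicate 3 or any of the P3 libraries was left out (adjusted p up to 0.0900, with P3 replicate 3 out), in a fit of P3 and FFSS alone (0.0664) and with the replicate block (log2 fold change 3.49, adjusted p = 0.0834).

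miR-146b-5p in the same FFSS libraries was at 159, 192 and 141 CPM (164 ± 26.2, SD, n = 3), a range that encloses the P3 values. The log2 fold change was -0.06 (SE 0.30, adjusted p = 0.905), with a 95% interval from -0.72 to 0.59. A change of up to 1.64-fold down or 1.51-fold up is within that interval. FFSS replicate 1, with 42.8 times the P3 mean of miR-146a-5p, had 0.954 times the P3 mean of miR-146b-5p.

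The groups at the ends of the range were also compared with each other. Between P9 and FFSS, miR-146a-5p differed by 259-fold (log2 fold change -8.02, SE 1.19, adjusted p = 7.24e-04), the largest absolute difference of the 439 miRNAs. It kept its call under every alternative run, with log2 values from -8.85 to -5.99. miR-146b-5p was higher in P9 by 1.19 on the log2 scale (SE 0.31, adjusted p = 0.00953), a call that was lost with FFSS replicate 3 out (0.0514). Of all miRNAs, 34.4% were called here, 22.6% as higher and 11.8% as lower in P9. The groups did not overlap for 42.8%, with P9 wholly higher for 23.0% and wholly lower for 19.8%. The order of levels was P9, P3 and FFSS for miR-146a-5p, with each neighbouring pair past the test in the main fit. As given above, both of those calls were lost with any P3 library left out and with the replicate block. For miR-146b-5p P3 and FFSS did not differ beyond their spread and P9 was above both.

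**Figure D2:**
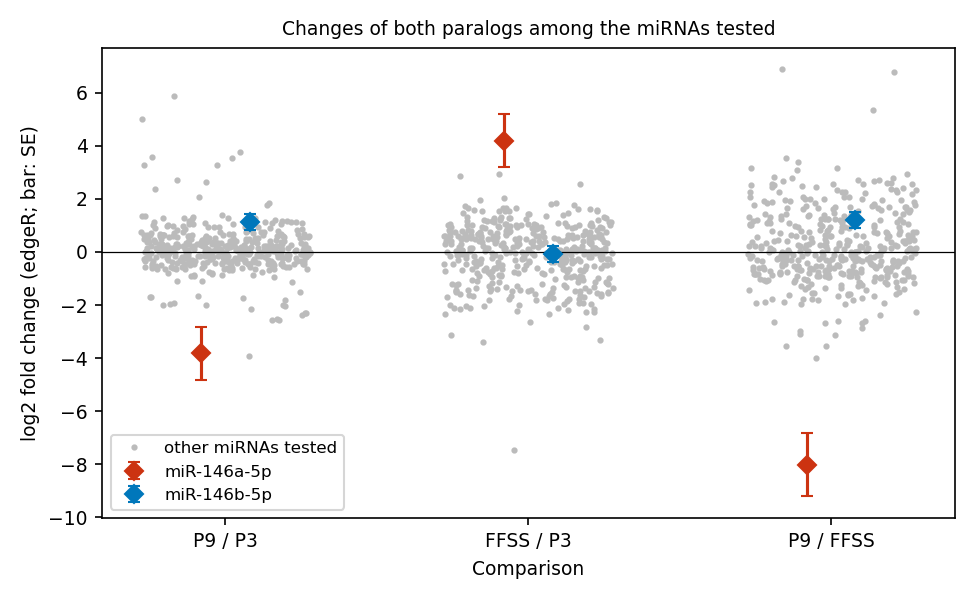
log2 fold changes (edgeR, bars: SE) of miR-146a-5p and miR-146b-5p in the 3 comparisons, over those of the other miRNAs tested in grey. miR-146a-5p lies at -3.82, 4.20 and -8.02, at the edge of the distribution each time, while miR-146b-5p lies at 1.13, -0.06 and 1.19.

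Because the paralogs were read in the same library, their ratio is free of any scaling between libraries. In P3 the reads of miR-146a-5p were 71.4%, 69.8% and 70.0% of those of both together. In P9 they were 4.31%, 3.52% and 14.4%, so that miR-146b-5p was the major form in every P9 library. In FFSS they were 99.1%, 77.2% and 96.5%. The mean log2 ratio of miR-146a-5p to miR-146b-5p was 1.25 ± 0.06 in P3 (SD, n = 3 here and for the other groups). It was -3.94 ± 1.19 in P9 and 4.42 ± 2.51 in FFSS. The 3 groups did not overlap, and an exact permutation test of the 3 groups gave p = 0.00357, the smallest the 1680 arrangements allow. Each pair of groups gave an exact two-sided permutation p of 0.10, the smallest that 3 libraries against 3 allow, and 0.10 also when adjusted over the 3 pairs.

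**Figure D3:**
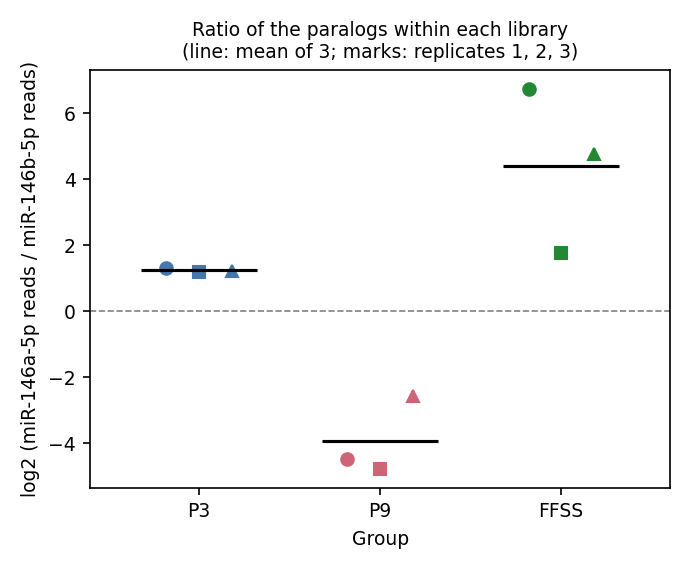
log2 ratio of miR-146a-5p to miR-146b-5p reads within each library, with the mean of each group as a line and equality as a dashed line. The P3 libraries lie between 1.21 and 1.32, all P9 libraries below 0 and all FFSS libraries above P3.

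The ratios also bound how far reads of one paralog could have been counted under the other. In FFSS replicate 1 the miR-146b-5p row held 459 reads beside 48947 of miR-146a-5p, which is 0.938%, so at most that share of miR-146a-5p reads was entered as miR-146b-5p there. In P9 replicate 2 the miR-146a-5p row held 122 reads beside 3348 of miR-146b-5p, at most 3.64% in the other direction.

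As both strands carry the same seed, their sum gives the level of that seed from these genes. The P3 libraries had a sum of 561, 571 and 560.0 CPM, those of P9 365, 441 and 330 CPM, and those of FFSS 17161, 843 and 3993 CPM. All P9 libraries were below all P3 libraries, yet with both rows summed into 1 before the fit the difference of P9 from P3 did not pass (log2 fold change -0.50, SE 0.73, adjusted p = 0.813; 95% interval -2.07 to 1.07; adjusted p = 0.317 in a fit of P3 and P9 alone). Against the P3 mean, the summed CPM of P9 replicates 1 to 3 stood at -0.63, -0.36 and -0.77 on the log2 scale, where miR-146a-5p alone stood at -4.66, -4.68 and -3.06. Under shear stress the sum rose by 3.81 on the log2 scale (SE 0.81, adjusted p = 0.00920), and P9 was below FFSS by 4.30 (log2 fold change -4.30, SE 0.83, adjusted p = 0.00235). In these 3 fits 6.62%, 19.9% and 36.1% of the rows were called. The rise under shear stress was 1.90 without FFSS replicate 1 (adjusted p = 0.0218), and it lost its call without P9 replicate 3 (0.0571) and in a fit of P3 and FFSS alone (0.0637). The difference between P9 and FFSS lost its call without P9 replicate 3 (0.0565).

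The paralogs also differed in how evenly replicates matched. On the log2 scale of scaled CPM, the SD of miR-146a-5p over the 3 libraries was 0.18 in P3, 0.99 in P9 and 2.38 in FFSS, and the last was the highest of all 439 miRNAs, whose median in FFSS was 0.42. For miR-146b-5p the SD was 0.24, 0.32 and 0.36, below the median of P3, P9 and FFSS each time. In P3 the CPM before scaling differed by at most 1.02-fold for miR-146a-5p and 1.08-fold for miR-146b-5p. The scaling factors of P3 replicates 1 to 3 were 1.17, 0.913 and 0.952, so the P3 SDs include the spread of those factors. Among the 128 miRNAs of at least 100 CPM in FFSS the median SD was 0.39.

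**Figure D4:**
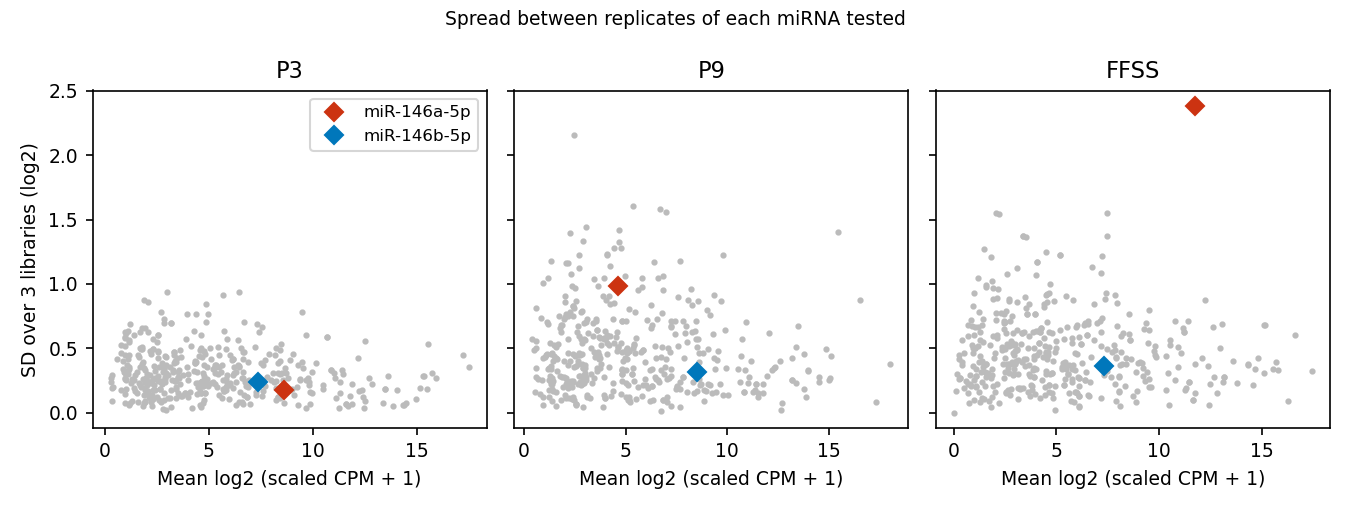
SD over 3 libraries against mean level (log2 of scaled CPM with 1 added) for each miRNA tested, by group. miR-146a-5p has an SD of 0.18 in P3, inside the cloud, and of 2.38 in FFSS, above every other miRNA, while miR-146b-5p stays at 0.24 to 0.36.

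The 3p arms, sparse but sequence-distinct, gave a second reading of each hairpin. The P3 libraries held 6, 8 and 11 reads of miR-146a-3p, each P9 library held 0, and the FFSS libraries held 42, 7 and 20. In CPM the P3 libraries had 0.713, 1.06 and 1.24 and the FFSS libraries 14.6, 0.988 and 5.13. Replicates 1 and 3 of FFSS lay above P3, and replicate 2 lay within it. With the 3 libraries of each group pooled, P3 had 25 reads and FFSS 69, of which 42 came from replicate 1. As the limit that a count of 0 allows, 3 reads were taken over the P9 group. The pooled level of P3 was 7.95 times that limit and the pooled level of FFSS 39.3 times. Both values take the pooled reads of P3 and FFSS as exact and leave out the spread between libraries, so they are not bounds. The order of the FFSS replicates was the same for both arms of this hairpin, replicate 1 first, then 3, then 2. The filter on low counts removed miR-146a-3p from the 439. In the fit of all 726 rows, of which 5.65% and 12.5% were called in the comparisons with P3, it was called lower in P9 (adjusted p = 0.0354) and higher in FFSS (0.0402). In that same fit miR-146a-5p was not called in either (adjusted p = 0.212 and 0.0946).

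For miR-146b-3p the P3 libraries held 12, 2 and 13 reads, those of P9 held 22, 23 and 8, and those of FFSS held 3, 9 and 10. P9 replicates 1 and 2, at 2.89 and 2.92 CPM, were above all P3 libraries and replicate 3, at 0.978 CPM, was not. The difference from P3 did not pass (log2 fold change 1.13, SE 0.60, adjusted p = 0.369), nor did those of FFSS from P3 (0.55, adjusted p = 0.558) and of P9 from FFSS (0.58, adjusted p = 0.492).

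The 5p arm was the major product of both hairpins. In P3 the 3p arm of miR-146a had 25 of 9869 reads, 0.253% (95% exact binomial interval 0.164% to 0.374%), and that of miR-146b had 27 of 4166, 0.648% (0.428% to 0.942%). The order was not the same in every library. P3 replicates 1 to 3 had 0.178%, 0.266% and 0.316% for miR-146a beside 0.880%, 0.154% and 0.866% for miR-146b, so in replicate 2 the miR-146b share was the lower. In FFSS the share of miR-146a was 0.101% (0.0782% to 0.127%), with 0.0857%, 0.152% and 0.133% by library, and that of miR-146b was 0.920% (0.578% to 1.39%). The pooled intervals of miR-146a in P3 and FFSS did not overlap, nor did their library values, although the interval of P3 replicate 1 alone (0.0652% to 0.386%) encloses all 3 FFSS shares. In P9 miR-146a had 0 of 631 reads on the 3p arm, with an exact interval up to 0.583%, and miR-146b had 0.633% (0.475% to 0.827%). These intervals and limits cover counting error only.

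**Figure D5:**
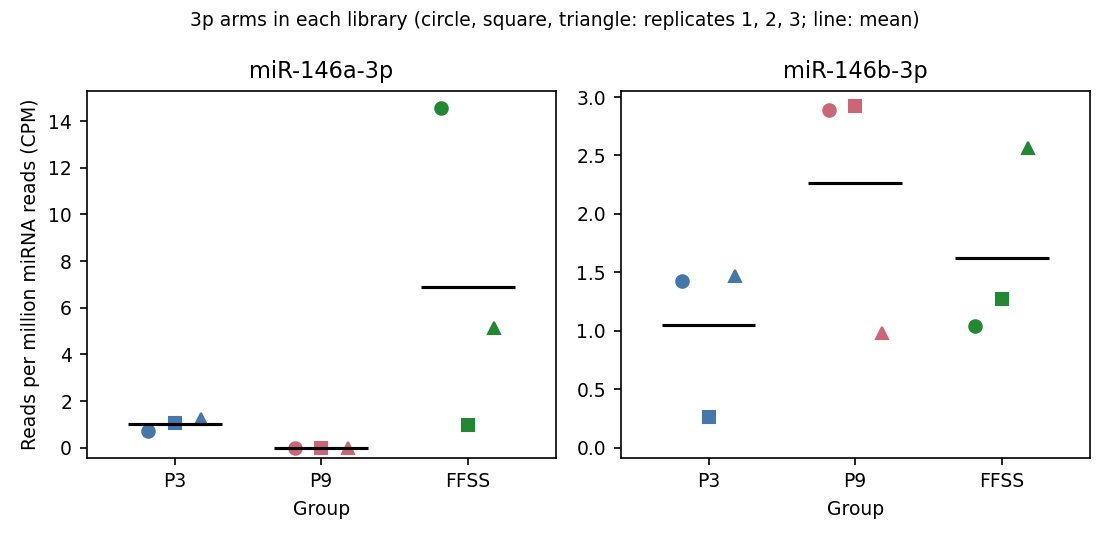
CPM of miR-146a-3p and miR-146b-3p in each library, with lines at the group means. miR-146a-3p is at 0 in all 3 P9 libraries and reaches 14.6 CPM in FFSS replicate 1, and miR-146b-3p lies between 0.266 and 2.92 CPM with overlapping groups.

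The other miRNAs tied to NF-kB, induced by it or known to act on its components, were read from a list of 24, of which 23 passed the filter (miR-223-3p, a myeloid miRNA, did not). At passage 9, 2 of 23 rose and 0 fell with edgeR, which is 8.70% beside 7.29% of all miRNAs. At an unadjusted p under 0.05 there were 7 of 23, 0 of them lower, beside 76 of 439 miRNAs. DESeq2 called 3, beside 10.5% of all miRNAs, and limma-voom 2, beside 7.52%, with 0 lower in each. The 2 that rose, by 0.93 and 1.07 on the log2 scale, were miR-221-3p (adjusted p = 0.0364) and miR-222-3p (0.0134), a cluster known for repressing the cell cycle inhibitor p27. The median of the list was 0.50 against 0.06 for all 439. Leaving out P3 replicate 1, 2 or 3 gave 0, beside 3.54%, 4.84% and 3.54% of all miRNAs in those fits. The block gave 1 (4.35% beside 6.15%). Leaving out P9 replicate 1, P9 replicate 2 or FFSS replicate 3 gave 1 each (4.35% beside 4.42%, 4.66% and 6.04%). Leaving out P9 replicate 3 gave 4 (17.4% beside 11.3% of all miRNAs in that fit), or 7 together with FFSS replicate 1 (30.4% beside 89 of 444 miRNAs).

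Under shear stress 4 of 23 rose and 1 fell, 21.7% beside 20.5% of all miRNAs, and the median was -0.01 against 0.02. At an unadjusted p under 0.05 there were 7 of 23, 3 of them lower, beside 159 of 439 miRNAs. Those that rose were miR-132-3p, a miRNA induced through CREB (84.6 ± 21.1 to 186 ± 52.1 CPM, SD, n = 3; 1.08, adjusted p = 0.0379), miR-9a-5p, indistinguishable from the row miR-9b-3p (40.0 ± 9.19 to 94.8 ± 35.7 CPM, SD, n = 3; 1.21, adjusted p = 0.0464), miR-9a-3p (1.75, adjusted p = 0.0399) and miR-147 (1.45, adjusted p = 0.0494). The last 2 were under 5 CPM. The one that fell was miR-222-3p (-0.92, adjusted p = 0.0232). The shares called by edgeR at the adjusted threshold, 8.70% at passage 9 and 21.7% under shear stress, are near the background. The number of calls was 0 without P3 replicate 1 or FFSS replicate 3, beside 7.96% and 8.95% of all miRNAs in those fits. With the block it was 1 (4.35% beside 11.6%), and that call was among the 5. Leaving out P3 replicate 2, P3 replicate 3 or P9 replicate 2 gave 1 (4.35% beside 9.89%, 12.2% and 13.5%). Leaving out P9 replicate 1 gave 2 (8.70% beside 19%). With P9 replicate 3 out there were 9 calls, 39.1% beside 32.6% of all miRNAs.

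miR-155-5p, the best known miRNA induced alongside miR-146a by inflammatory stimuli, did not share its pattern. Its P3 libraries stood at 216, 249 and 212 CPM, those of P9 at 414, 450 and 336 CPM and those of FFSS at 332, 136 and 119 CPM. It passed in neither comparison with P3 (0.88 with adjusted p = 0.295, and -0.21 with adjusted p = 0.743). Its P9 libraries were above all P3 libraries, as for miR-146b-5p. Between P9 and FFSS 6 of 23 list members were called, 26.1% beside 34.4%: miR-222-3p, miR-221-3p, miR-21-5p, miR-212-5p and miR-31a-5p were higher in P9 and miR-9a-3p lower, and without P9 replicate 3 there were 10 calls (43.5%, beside 203 of 451 miRNAs in that fit).

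Markers of other cell types moved with miR-146a-5p in part. Of the leukocyte list, miR-142-5p was called higher in FFSS (means of 4.84 CPM in P3 and 14.6 CPM in FFSS, log2 fold change 1.53, adjusted p = 0.0437). It was 1 of 4 tested members, where 20.5% of all miRNAs were called. miR-142-3p (means of 1.33 and 2.98 CPM, adjusted p = 0.212) and miR-150-5p (3.87 and 8.28 CPM, adjusted p = 0.0991) were not called. FFSS lay wholly above P3 for these 3 members, where that held for 18.9% of all miRNAs. The myeloid marker miR-223-3p had 1 to 5 reads in each P3 library. It was at 0 in FFSS replicates 1 and 2 and at 0.513 CPM in replicate 3, too few reads to show a change. The summed leukocyte level, mostly miR-155-5p, ranged over 222 to 259 CPM in P3. In P9 it ranged over 348 to 460 CPM, in FFSS over 151 to 362 CPM. In FFSS, 5 summed marker lists had the same order of replicates as miR-146a-5p, with replicate 1 highest and replicate 2 lowest. The cartilage, leukocyte and mesenchymal sums did not. For replicates 1 to 3 these were 7202, 6841 and 6077 CPM, then 362, 153 and 151 CPM, then 51438, 83936 and 86435 CPM. Library depth ran in the reverse order, with 2878910, 3896403 and 7082142 reads in replicates 1, 3 and 2. The part of depth in the order of the 5 lists was not tested. In replicates 1 to 3 the red blood cell markers were at 573, 154 and 368 CPM (69.4 to 150.1 CPM in P3), and the muscle markers at 512, 180 and 267 CPM (133 to 146 CPM in P3). Epithelial markers were at 226, 90.4 and 155 CPM (81.1 to 102 CPM in P3). The endothelial markers were at 695, 556 and 590.3 CPM (386 to 406 CPM in P3), and the liver marker miR-122-5p at 51.4, 15.5 and 30.5 CPM (9.87 to 11.7 CPM in P3). In reads the muscle markers came to 1095 to 1182 in P3 and 1042 to 1474 in FFSS, and the epithelial markers to 610 to 900 and 604 to 652. The endothelial markers came to 2937 to 3418 reads in P3 and 2001 to 3940 in FFSS. Those of red blood cells came to 615 to 1129 and 1093 to 1649 reads, and the liver marker to 83 to 90 and 110 to 148. miR-146a-5p went from 2998 to 3475 reads in P3 to 48947, 4605 and 15012 in FFSS, with the most reads in the shallowest library. In P9 replicate 3, the highest of its group for miR-146a-5p, the muscle markers reached 513 CPM (155 and 141 CPM in replicates 1 and 2) and those of red blood cells 299 CPM (65.8 and 294 CPM). The liver marker was at 22.9 CPM there (3.94 and 3.43 CPM in the others) and the endothelial markers at 491 CPM (297 and 275 CPM). The epithelial markers went the other way, at 25.2 CPM (77.7 and 75.4 CPM). Under shear stress edgeR called miR-200b-3p (higher) as 1 of 6 epithelial markers, where 20.5% of all miRNAs were called and 36.2% had an unadjusted p under 0.05. It called 0 of 2 endothelial, 0 of 2 red blood cell, 0 of 3 muscle and 0 of 1 liver markers, of which 0, 2, 1 and 1 passed that unadjusted threshold. DESeq2, with 26.7% of all miRNAs called, called 0, 2, 0 and 0 of them, and limma-voom, with 18.9%, 0 of each. At passage 9 edgeR, DESeq2 and limma-voom each called 0 members of these 5 lists and of the leukocyte list, and 0 had an unadjusted p under 0.05, beside 7.29% of all miRNAs called by edgeR and 17.3% at that unadjusted p. Of 4 cartilage markers edgeR called 0 in either comparison with P3 (2 and 0 at an unadjusted p under 0.05, 1 and 0 with DESeq2, 0 and 0 with limma-voom), beside the same shares of all miRNAs, 7.29% and 20.5% called and 17.3% and 36.2% unadjusted. Of 4 mesenchymal markers 1 rose at passage 9, miR-143-3p (1.35, adjusted p = 0.00348), and 1 fell under shear stress, miR-145-5p (-1.57, adjusted p = 0.00944). In each of these comparisons 2 of the 4 passed unadjusted, beside those same shares of all miRNAs. Between P9 and FFSS, where 34.4% of all miRNAs were called, so were 3 of 4 mesenchymal markers. miR-143-3p and miR-145-5p were higher in P9 and miR-214-3p lower. miR-140-3p, miR-142-5p and miR-203a-3p were called lower, as 1 of 4 cartilage, 1 of 4 leukocyte and 1 of 6 epithelial markers. The endothelial, red blood cell, muscle and liver lists had 0 called. The part of other cells in the miR-146a-5p levels was not tested.

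The miRNAs with the pattern most like each paralog were found by Pearson's r of log2(scaled CPM + 1) over the 9 libraries, which share the 3 groups, so r describes mainly group differences. For miR-146a-5p these were miR-224-5p (r = 0.957), miR-23b-3p (0.938), miR-378a-3p with its indistinguishable row miR-3557-5p (0.937 each) and miR-1839-3p (0.933). miR-224-5p, which lies in an intron of a GABA receptor subunit gene, had 202, 167 and 198 CPM in the P3 libraries. P9 had 38.9, 35.5 and 109 CPM, and FFSS had 667, 404 and 641 CPM. As for miR-146a-5p, replicate 3 was the highest of P9 and replicate 2 the lowest of FFSS. By Spearman's rho, miR-10a-5p and miR-224-5p led (0.983 each).

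For miR-146b-5p the most alike were miR-384-3p (r = 0.923), miR-34c-5p (0.919), miR-143-3p (0.913), miR-384-5p (0.904) and miR-34b-5p (0.902). miR-34c-5p, a p53-induced miRNA, went from 150 to 155 CPM in P3 to 1350, 1108 and 508 CPM in P9, and miR-143-3p, abundant in smooth muscle and fibroblasts, from 56979 to 68796 CPM to between 133849 and 178130 CPM. miR-384-3p, miR-384-5p and miR-34b-5p had at most 4.96 CPM in a library. The paralogs themselves had r = -0.81 with each other, which placed miR-146b-5p 390th of 438 miRNAs in likeness to miR-146a-5p.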

How the data were processed

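Small RNA libraries of 9 samples were sequenced from 1 end by the submitters. The authors deposited a table of 726 miRNA rows with read counts and TPM values per library, per the file headers. The deposited TPM equalled the count per 1000000 reads of the library's total (CPM) within 4.85e-05. The submitters' processing notes name Bowtie, without a version, and Rnor_6.0. The sources used here do not give the counting program or its handling of reads that match similar rows.

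Groups came from the sample titles. The deposited counts were tested unchanged with edgeR 4.0.16 in R 4.3.3: filterByExpr kept 439 rows and removed 0.0069% of reads, libraries were scaled by TMM, and 1 model without intercept held all 9 libraries (robust quasi-likelihood test, Benjamini-Hochberg over the rows kept). The SE is the log2 fold change divided by the root of F. The paralogs' log2 ratio, with 0.5 added to each count, was tested by exact permutation over libraries. The script was tested on simulated counts. Alternatives used DESeq2 1.42.0, limma 3.58.1 (voom, and trend on log2 of TPM), other scalings and filters, the 2 groups compared alone, a replicate block, leaving out each library, and a required log2 fold change of 1; leaving out P9 replicate 3 and FFSS replicate 1 together was chosen after seeing the data. Named are the paralogs, their 3p arms, members of a list of 24 NF-kB-linked miRNAs that were called, the 5 miRNAs most like each paralog, and markers beside a result. Both arms of miR-155, miR-223-3p and the leading miRNAs by Spearman's rho were named after their values were seen. Rows whose counts agreed in every library within 10% or 5 reads are named as indistinguishable. The marker lists overlap the NF-kB list in miR-155-5p, miR-223-3p and miR-199a-5p. The members and lists were chosen with earlier results of these data known. Sequences are RefSeq's (GRCr8), matched by name for all 4 mature strands.

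The deviations of same-numbered libraries from their group means had correlations from -0.50 to 0.14, and replicate numbers were not taken as pairs. With 3 libraries a group, these correlations cannot exclude a shared origin of same-numbered libraries.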

Additional observations from a re-analysis of the deposited data

Results flagged for a closer look

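The response of miR-146a-5p differed between the passage 9 and the shear-stressed cells when tested directly (P9 against FFSS, log2 fold change -8.02, adjusted p = 7.24e-04 with edgeR), lower in 3 of 3 P9 libraries. That of miR-146b-5p differed in the opposite direction (1.19, adjusted p = 0.00953), higher in 3 of 3. Their summed level differed by -4.30 (adjusted p = 0.00235), lower in 3 of 3.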

How the results depend on the processing

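Each result was recomputed under 24 alternatives (12 for the ratio), and none of the called differences changed sign. The difference of miR-146a-5p between P9 and FFSS kept its call in all 24, and the ratio of the paralogs gave an exact p of 0.00357 to 0.00714. The other calls did not hold throughout, and the cause was not tested. The fall of miR-146a-5p at passage 9 was -3.91 with upper-quartile factors (adjusted p = 0.0643), -3.89 with TMM without the 10 most abundant miRNAs (0.0552), -3.85 with no filter (0.212) and -3.82 against a required log2 fold change of 1 (0.0987). The rise of miR-146b-5p was 1.07 with TMM without those 10 (0.0525) and 1.13 against the required change (adjusted p = 0.99992). Under shear stress miR-146a-5p was 4.06 with no filter (0.0946), 4.28 in a fit of the 2 groups alone (0.0664) and 4.20 against the required change (0.0709). The summed paralogs were 3.70 (0.0880), 3.81 (0.0637) and 3.81 (0.0633) in those 3 fits. Between P9 and FFSS, miR-146b-5p was 1.19 against the required change (0.367).

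Leaving out 1 library at a time, or P9 replicate 3 with FFSS replicate 1, moved miR-146a-5p over -4.65 to -3.51 for P9 against P3 and 2.20 to 4.72 for FFSS against P3. miR-146b-5p ran over 0.97 to 1.25 for P9 against P3 and 1.03 to 1.43 for P9 against FFSS. The sum ran over 1.81 to 4.18 for FFSS against P3 and -4.72 to -2.27 for P9 against FFSS. The NF-kB-linked calls ran over 0 to 7 for P9 against P3, 0 to 9 for FFSS against P3, and 4 to 11 between P9 and FFSS. Without P9 replicate 3 and FFSS replicate 1 together, 30.4%, 39.1% and 47.8% of the list were called, beside 20%, 39.4% and 49.8% of all miRNAs. The 0 calls for P9 against P3 stood beside 3.54% to 4.84% of all miRNAs, and those for FFSS against P3 beside 7.96% and 8.95%. The 4 calls between P9 and FFSS, 17.4%, stood beside 24.4% to 25.4%. For P9 against P3 the list had 1 call with library size only or limma-trend on either log2 TPM scale, beside 7.06% to 7.29% of all miRNAs. Against the required change it had 0, beside 3.87%. For FFSS against P3 the list had 3 calls with TMM without the 10 most abundant, a mean of at least 50 counts or limma-voom. These stood beside 21%, 20.7% and 18.9% of all miRNAs. With no filter it had 2, beside 12.5%, and against the required change 0, beside 0%. Between P9 and FFSS it had 2 against the required change, beside 14.4%. Over all miRNAs, 32, 90 and 151 were called in the 3 comparisons, and 17, 0 and 63 against the required change. The first 2 counts were 51 and 147 without P9 replicate 3, and 89 and 175 without FFSS replicate 1 as well. Leaving out other single libraries took them down to 16 and 36.

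Replicate numbers were not taken as pairs, although the sources do not say whether same-numbered libraries belong together. With the replicate block the passage 9 values were -3.98 for miR-146a-5p (adjusted p = 0.0889) and 1.11 for miR-146b-5p (0.0723). Under shear stress miR-146a-5p was 3.49 (0.0834). The NF-kB-linked calls with the block were 1 in each comparison with P3, 4.35% of the list. Of all miRNAs, 27 (6.15%) were called at passage 9 and 51 (11.6%) under shear stress.

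With 3 libraries a group, 2 of the FFSS libraries shallow, the sizes of the miR-146a-5p changes are known only within wide intervals (for FFSS against P3, 1.99 to 6.40 on the log2 scale). The 3p arms rest on 0 to 42 reads a library.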
